A study of Mus musculus with 2 samples.

Results

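Expression of 9 megakaryocyte and platelet genes was examined in RNA-seq libraries of splenic Treg cells. The genes were Pf4, Ppbp, Itga2b, Itgb3, Gp9, Gp1ba, Gp5, Gp6 and Vwf, taken by their gene symbols, and all 9 are rows of the deposited tables, which hold 20938 genes each. Megakaryocytes are the large marrow and, in mice, also splenic cells that shed platelets. Platelets have no nucleus and carry RNA and granules made by the megakaryocyte. The receptor complex of GPIbα, GPIbβ, GPIX and GPV binds von Willebrand factor, GPVI binds collagen, integrin αIIbβ3 binds fibrinogen, and the granules release the chemokines encoded by Pf4 and Ppbp. These genes are used to mark the lineage and are no part of the Treg program, but not all of them are limited to it. For example, Itgb3 is also made by macrophages and other cells, and Vwf by endothelial cells.

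The study compared Foxp3-Mettl14f/+ cKO recipients, which carry Cre under the Foxp3 promoter and 1 floxed allele of the m6A methyltransferase subunit gene Mettl14, with littermate controls. The methods describe these littermates as Mettl14f/f, whereas the labels give wild type for the control and a Foxp3 knockdown for the other library, and the genotypes of the methods are used here. All recipients were on the C57BL/6J background, were made diabetic with streptozotocin and received BALB/c islets under the kidney capsule, without antibody treatment. Treg cells were taken from the spleen on day 7 by depletion of non-CD4+ cells and positive selection on CD25 after red cell lysis, and each genotype has 1 library (its age, sex and number of pooled mice are not given in the sources used here). Because neither genotype has a second library, a difference below is between these 2 libraries and has no replicate check.

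The upstream sequences of 5 of the genes are shown because Pf4, Ppbp, Gp9 and Gp5 were the members more than 1.5-fold higher in the cKO library and Itga2b had nearly the same level in both. They are RefSeq sequences on GRCm38.p6, the 250 bases before the start that RefSeq gives, and capitals mark, on either strand, motif words of transcription factors that act in megakaryocytes. The word of ETS factors was GGAAGT, and a second word, AGATAA, or its variant with the first letter changed, TGATAA, stood for GATA factors. Pf4 is chr5:90772185-90772434 on the plus strand, Ppbp chr5:90768268-90768517 on the plus strand, Gp9 chr6:87777820-87778069 on the plus strand, Gp5 chr16:30310782-30311031 on the minus strand and Itga2b chr11:102469884-102470133 on the minus strand. In GENCODE vM21 a shorter Itga2b transcript starts further upstream, so 239 bases of that window lie within the gene as placed below.
Pf4: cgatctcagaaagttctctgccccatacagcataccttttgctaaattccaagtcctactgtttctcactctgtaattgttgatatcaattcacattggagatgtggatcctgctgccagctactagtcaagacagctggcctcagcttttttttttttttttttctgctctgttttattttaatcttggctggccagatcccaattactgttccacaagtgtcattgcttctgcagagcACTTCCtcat
Ppbp: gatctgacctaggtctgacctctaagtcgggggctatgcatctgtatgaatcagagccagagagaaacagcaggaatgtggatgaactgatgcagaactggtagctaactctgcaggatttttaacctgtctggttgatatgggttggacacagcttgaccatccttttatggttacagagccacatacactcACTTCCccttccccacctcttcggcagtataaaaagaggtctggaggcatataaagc
Gp9: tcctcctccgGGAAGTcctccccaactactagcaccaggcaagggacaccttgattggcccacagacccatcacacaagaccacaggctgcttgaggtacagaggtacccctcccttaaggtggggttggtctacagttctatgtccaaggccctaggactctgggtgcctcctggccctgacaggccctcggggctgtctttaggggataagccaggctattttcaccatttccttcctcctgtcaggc
Gp5: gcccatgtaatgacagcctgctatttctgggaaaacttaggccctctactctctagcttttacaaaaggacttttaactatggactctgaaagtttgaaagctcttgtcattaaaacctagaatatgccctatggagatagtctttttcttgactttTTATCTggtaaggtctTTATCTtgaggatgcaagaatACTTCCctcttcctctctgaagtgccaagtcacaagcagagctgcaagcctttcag
Itga2b: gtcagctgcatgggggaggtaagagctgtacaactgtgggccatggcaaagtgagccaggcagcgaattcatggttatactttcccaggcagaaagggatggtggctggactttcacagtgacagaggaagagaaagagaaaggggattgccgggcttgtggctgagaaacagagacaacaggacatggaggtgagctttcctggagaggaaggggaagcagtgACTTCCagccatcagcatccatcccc
The promoter table held 7 of the 9 members. GGAAGT was found in 5 of these 7, namely the promoters shown, and in 19.7% of all 32851 promoter windows of this length. A word of GATA factors was found in Gp1ba, Gp5 and Gp6, 3 of 7, against 16.6% of all windows. No marked word overlapped another in the sequences shown, and GGAAGT was present both in promoters of genes with higher levels and in that of Itga2b, while the window of Gp1ba, which was also higher in the cKO library, did not hold it. A match is a description of these letters and not a bound site.

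Levels are the deposited values, which are reads divided by a size factor of the library. All of them (100%) were multiples of the smallest one to within 0.01 of a read, so whole reads were recovered, 20239325 for the control and 18327535 for the cKO. Changes are log2 fold changes of cKO over control after 1 was added to each level. Intervals at 95% come from the exact Clopper-Pearson method applied to the reads. They hold counting error alone, because each genotype has 1 library. Reads that carry no molecular identifiers are not independent molecules, so the intervals can be too narrow even for that error. Where reads are given as a pair, the control comes first. Mettl14 itself had 948 and 652 reads (change -0.31, interval -0.45 to -0.16) and Foxp3 had 1547 and 1361 (0.05, -0.06 to 0.15). The tissue label was checked against marker genes. The 16 T cell core genes found all had reads in both libraries (79195 and 54450 in sum), but 12 granulocyte genes held more (262191 and 302569). Macrophage and erythroid transcripts were present as well, so the libraries were not T cell RNA alone.

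Pf4 and Ppbp, the genes of the alpha granule chemokines platelet factor 4 and pro-platelet basic protein, were both higher in the cKO library. They lie next to each other on the plus strand of chromosome 5, with 2371 bases between them, Ppbp from 90768518 to 90770063 and Pf4 from 90772435 to 90773383 (GRCm38). Pf4 had 58 control reads and 97 cKO reads, levels of 56.1 and 110.3, and its change was 0.96 (interval 0.49 to 1.47). Ppbp had 12 and 58 reads, levels of 11.6 and 66.0, and the largest change of all members, 2.41 (1.59 to 3.54). The intervals of the 2 chemokine genes did not overlap. For each 100 Pf4 reads there were 20.7 Ppbp reads in the control and 59.8 in the cKO. These are low counts, and the Ppbp change moved most with the pseudocount, from 2.09 with 5 to 2.50 with 0.1.

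**Figure D1:**
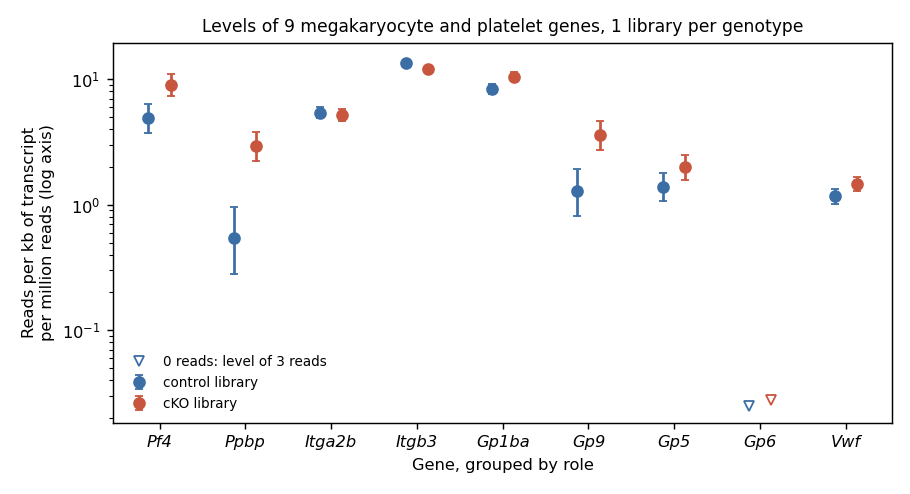
Level of each of the 9 genes in the control library (blue) and the cKO library (red), in reads per kb of transcript per 1000000 reads on a log axis, with 95% exact Poisson intervals of the counts. Open triangles mark Gp6, which had 0 reads, at the level 3 reads would give. Ppbp and Gp9 show the widest gap between the libraries and Itga2b the narrowest of the genes with reads.

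The pair of genes for the fibrinogen receptor had nearly equal levels in both libraries. Itga2b, which encodes integrin αIIb (CD41), is transcribed from the minus strand of chromosome 11 (102453297 to 102470122). Its reads were 377 and 329, its levels 364.7 and 374.1, and its change 0.04 (interval -0.18 to 0.25). Itgb3, which encodes the β3 chain (CD61), lies on the same chromosome from 104608000 to 104670476 on the plus strand. It had 1587 and 1277 reads, levels of 1535 and 1452, and changed by -0.08 (-0.19 to 0.03). Neither differed detectably between the libraries at this depth. Both directions depend on the scaling, since Itga2b was at -0.05 with library totals and Itgb3 at 0.20 when T cell core genes were set equal. Itgb3 alone held 57.0% of the members' reads in the control and 48.0% in the cKO, and the 9 genes together had 138 and 145 of every 1000000 reads. Per kb of transcript, Itga2b stood at 0.40 of the Itgb3 level in the control and at 0.43 in the cKO. Itgav, whose αv chain also pairs with β3, had 1575 and 1536 reads and a change of 0.20 (0.09 to 0.30).

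Within the receptor complex for von Willebrand factor the subunit genes differed in their change. Gp9, which encodes the small subunit GPIX, lies on chromosome 6 from 87778072 to 87779768. It had 23 and 58 reads, levels of 22.2 and 66.0, and changed by 1.53 (interval 0.85 to 2.33). Gp5, which encodes GPV, lies on chromosome 16 from 30307685 to 30310779 and had 62 and 80 reads, levels of 60.0 and 91.0. Its change of 0.59 (0.10 to 1.10) was just past 1.5-fold on the deposited scale, and it was under 1.5-fold with a pseudocount of 5 and with the TMM, median-of-ratios and library total scalings. Gp1ba, which encodes the ligand-binding chain GPIbα, lies on chromosome 11 from 70639122 to 70642036. It had 457 and 522 reads, levels of 442.1 and 593.6, and a change of 0.42 (0.24 to 0.61), an interval above 0 and mostly below 1.5-fold. The interval of Gp9 lay wholly above that of Gp1ba, and the interval of Gp5 overlapped both. Gp1ba was the most abundant of the complex in both libraries. Per kb of transcript its level was 6.46 times that of Gp9 in the control and 2.93 times in the cKO. Gp1bb, the gene of GPIbβ, which is not one of the 9 genes, had 28 and 23 reads (change -0.05, -0.91 to 0.80) and is uncertain, since it shares 1902 exonic bases on the same strand with Sept5.

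Gp6, the gene of the collagen receptor GPVI, on chromosome 7 from 4363965 to 4397744, was listed at 0 in both libraries. A count of 0 allows up to 3 reads, or 0.148 of every 1000000 reads in the control and 0.164 in the cKO. It is 1 of 4041 genes listed at 0 in both tables. A 0 in these tables need not be a sampled count, because 610 of the 1224 genes that had 10 to 19 control reads were at 0 in the cKO. Fcer1g, which encodes the signalling chain that pairs with GPVI and also with Fc receptors of other cells, had 1574 and 2351 reads and changed by 0.81 (0.72 to 0.91). Vwf, the gene of von Willebrand factor, lies on chromosome 6 from 125546774 to 125686679 and had 210 and 237 reads, levels of 203.2 and 269.5. It changed by 0.41 (0.13 to 0.68). Endothelial cells are the other main source of Vwf, and of 12 endothelial genes past the filter on low levels (a mean of 1 or more), 6 were past 1.5-fold downward and 2 upward. Of all 16659 genes tested, 24.2% were past it downward and 17.2% upward. Cdh5, a defining endothelial gene, had 84 and 35 reads. Emcn, another, was at 0 in both libraries. With Emcn, 2 genes of the list were at 0 in the control and 3 in the cKO, so some of these calls rest on a 0. Pecam1, the most abundant of the list, went the other way, with 2339 and 2836 reads (0.51, 0.43 to 0.59). Kdr was at 0.14 (-0.46 to 0.75), and the median of the list was -0.77. The summed level of the list changed by 0.20, from 3453 to 3963, but Pecam1 alone held 2263 and 3225 of it. The part of endothelial RNA in the Vwf level was not tested. No exon of the 9 genes overlaps an exon of another gene in GENCODE vM21.

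Compared per kb of transcript, the order of the levels was not the same in the libraries. In the control library it was Itgb3 at 13.6 reads per kb per 1000000 reads, Gp1ba at 8.33, Itga2b at 5.42, Pf4 at 4.87, Gp5 at 1.39, Gp9 at 1.29, Vwf at 1.17 and Ppbp at 0.547. Counting intervals of neighbours overlapped for Itga2b and Pf4, for Gp5 and Gp9, and for Gp9 and Vwf. In the cKO library Itgb3 was at 12.05, Gp1ba at 10.5, Pf4 at 9.001, Itga2b at 5.22, Gp9 at 3.59, Ppbp at 2.92, Gp5 at 1.99 and Vwf at 1.46. There, the intervals overlapped for every pair of neighbours except Pf4 with Itga2b and Itga2b with Gp9. Pf4 was therefore not distinct from Itga2b in the control library and above it in the cKO library, at 0.899 and 1.72 times its level.

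**Figure D2:**
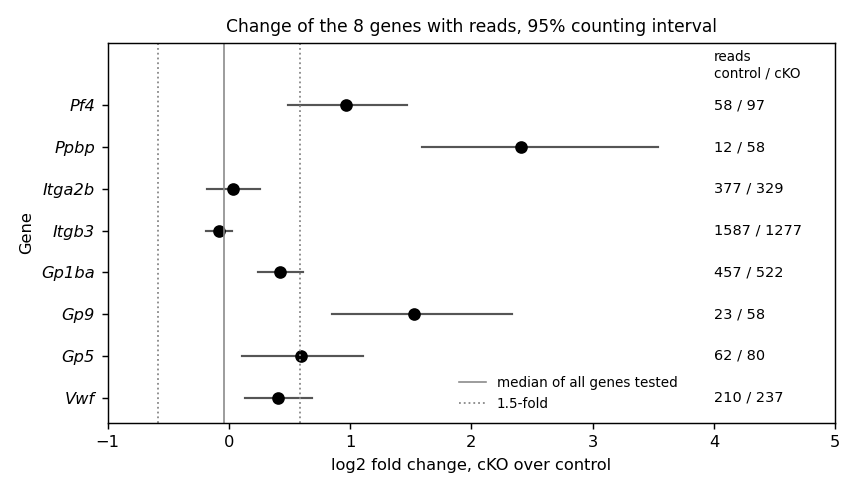
Log2 fold change of the cKO over the control level for the 8 genes with reads, with 95% exact Clopper-Pearson intervals for counting error and the reads in each library at the right. The solid line is the median of all genes tested at -0.04 and the dotted lines are 1.5-fold either way. Pf4, Ppbp, Gp9 and Gp5 lie past 1.5-fold, and the intervals of Itga2b and Itgb3 include 0.

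Of the 8 members past a mean level of 1, 4 were past 1.5-fold upward in the cKO library (Pf4, Ppbp, Gp9 and Gp5) and 0 were past it downward. Among all 16659 genes tested 17.2% were past it upward and 24.2% downward. Zeros make up much of the second share, as 13.7% of the 13853 genes above 0 in both libraries were past it downward and 15.8% upward. The members past it upward numbered 3, without Gp5, under the settings named above, where 2518 to 2797 of the 16659 genes were past it upward. They numbered 6, with Gp1ba and Vwf added, when T cell core genes were set equal. Under that scaling 4543 of the 16659 genes were past it upward and the median over all genes was 0.24. The 8 genes had a median change of 0.51, against -0.04 over all genes tested. Of the marker genes of other cells, all 10 B cell genes (8257 and 38577 reads in sum, from 1.94 to 3.10, none at 0) and all 12 macrophage genes (5603 and 17310 reads, from 0.85 to 4.57, with Marco at 0 in the control library) were past 1.5-fold upward. Their medians were 2.38 and 2.63, above that of the members, and the part of these cells in the members' levels was not tested. At 2-fold, Ppbp and Gp9 remained higher, 2 of 8, against 10.3% of all genes. With 9 genes these counts are a description. The changes of the members were uneven, from -0.08 for Itgb3 to 2.41 for Ppbp, and the 4 members with the most control reads (Itgb3, Gp1ba, Itga2b and Vwf) had the 4 smallest changes. The 3 members with the largest changes, Pf4, Ppbp and Gp9, had 93 control reads and 213 cKO reads between them. In bulk RNA a larger number of cells or platelets and more RNA in each cannot be told apart.

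**Figure D3:**
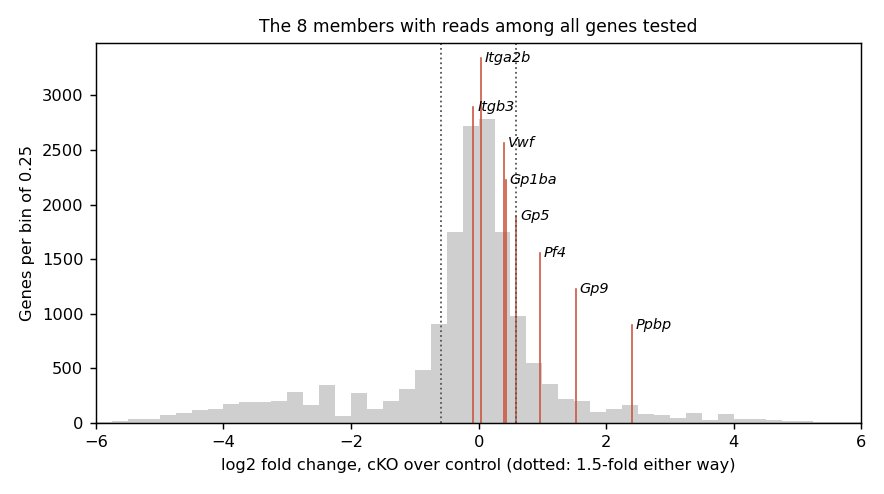
Number of genes per bin of 0.25 of the log2 fold change among the 16659 genes tested (grey bars; the axis stops at 6 either way), with the 8 members that had reads marked in red at their own value. The height of a red line has no meaning. Itgb3 and Itga2b lie at the peak of the distribution and Ppbp and Gp9 in its right shoulder.

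The reads of the 14863 genes with 10 or more in the libraries together were also put to an exact binomial test (two-sided), a comparison of the 2 libraries rather than of genotypes. With the Benjamini-Hochberg adjusted p below 0.1 and the change past 1.5-fold, it called Pf4, Ppbp and Gp9 higher, 3 of the 8 members tested, against 14.2% of all genes. It called 0 members lower, against 18.1% of all genes. When a biological coefficient of variation of 0.4 was assumed in edgeR's exact test, 0 of the 8 members were called, against 1.54% of all genes higher and 3.83% lower.

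A list of 59 further megakaryocyte and platelet genes in 4 roles was described in the same way. Of the 58 past the filter, 24 were past 1.5-fold upward and 8 downward, with a median of 0.36. For comparison with these counts and those of each role below, 17.2% of all genes tested were past it upward and 24.2% downward. Among genes above 0 in both libraries the shares were 15.8% and 13.7%. The roles differed in direction. The transcription factors of the lineage had the lowest median, -0.71, with 0 of 8 past 1.5-fold upward and 5 of 8 downward. Tal1 was lowest, at 2586 and 222 reads, with a change of -3.30 (-3.51 to -3.11). Gfi1b had 1134 and 360 reads (-1.42), and Gata1, which megakaryocytes and red cell precursors both need, had 1426 and 551 (-1.14). Its cofactor gene Zfpm1 changed by -0.68 and Meis1 by -0.75. Nfe2, which drives platelet release, was at 0.09 (-0.01 to 0.20), Runx1 at -0.05 and Fli1 at 0.56. Nfe2 stayed above 0 under each scaling, at its lowest 0.0041 with library totals, and Runx1 turned to 0.23 when T cell core genes were set equal. Red cell markers moved with these factors, as 18 of 19 were past 1.5-fold downward (75198 and 27748 reads in sum, none at 0), among them Klf1 at -1.56. Of 8 stem and progenitor genes, 6 were past 1.5-fold downward, 2 of them at 0 in the cKO library. The part of these cells in the transcription factor levels was not tested.

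Among the growth factor and receptor genes the changes went both ways, with 10 of 22 past 1.5-fold upward, 3 downward and a median of 0.18. P2ry12, the gene of the platelet ADP receptor that clopidogrel blocks, had 47 and 137 reads and changed by 1.75 (1.29 to 2.29). Treml1, which encodes an alpha granule membrane receptor, had 6 and 28 reads and a change of 2.27 (1.16 to 4.02). Clec1b, which encodes the podoplanin receptor CLEC-2, had 42 and 78 reads and a change of 1.11 (0.57 to 1.70), though it shares 184 exonic bases with Clec9a. Tbxa2r, the thromboxane receptor gene, changed by 1.24, and Cd36, whose product is also a macrophage scavenger receptor, by 2.08. In the other direction, Jam3, the gene of a junctional adhesion molecule, had 60 and 30 reads (-0.75). Thpo, the thrombopoietin gene, had 19 and 0 reads, and the size of that difference cannot be given because of the excess of zeros. Selp, the P-selectin gene, which endothelial cells share, was at -0.43, and the thrombin receptor gene F2rl3 at -0.09 (-0.56 to 0.37).

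Of 11 granule genes past the filter, 3 were past 1.5-fold upward and 0 downward, and the median was 0.39. Thbs1, the gene of thrombospondin, an alpha granule protein that macrophages also make, had 263 and 1419 reads and changed by 2.66 (2.47 to 2.86). F5, the coagulation factor V gene, had 944 and 1744 reads (1.12), and Serpine2 had 52 and 72 (0.69). Mmrn1, which encodes the factor V carrier multimerin, had 62 and 54 reads and a change of 0.03 (-0.52 to 0.58). Nbeal2, which alpha granule formation needs, changed by 0.39 and Rab27b, of dense granule packaging, by -0.15. Pdgfa was listed at 0 in both libraries.

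The signalling, lipid mediator and cytoskeleton genes had the highest median, 0.85, with 11 of 17 past 1.5-fold upward and 0 downward. Gng11, the gene of a G protein gamma subunit, had 4 and 46 reads and changed by 3.45 (2.30 to 5.69). Tubb1, which encodes the beta-tubulin of the platelet's marginal band, had 47 and 221 reads and a change of 2.44 (2.01 to 2.95). Alox12, the platelet-type lipoxygenase gene, had 16 and 72 reads (2.33, 1.61 to 3.28). Tbxas1, the thromboxane synthase gene that macrophages also use, had 66 and 229 reads (2.01), and Ptgs1, the upstream cyclooxygenase gene, changed by 0.70. Mylk and Myl9, the myosin light chain kinase and light chain genes, changed by 1.41 and 1.38. Tln1 and Rap1b, which are broadly expressed, and Fermt3 and Myh9 were each under 1.5-fold, between 0.16 and 0.35. Syk changed by 1.30, Plcg2 by 0.85 and Btk by 0.61, and all 3 also act in B cells. The part of B cells and macrophages, whose markers were given above, in the receptor, granule and signalling genes was not tested.

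**Figure D4:**
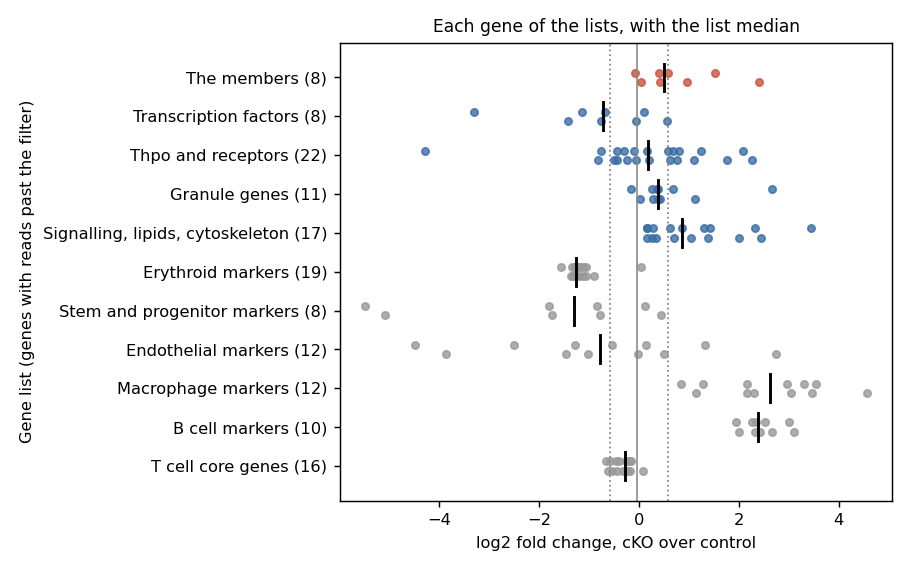
Log2 fold change of each gene past the filter in the 9 members (red), in the 4 roles of other megakaryocyte and platelet genes (blue) and in marker lists of other cells (grey), with the list median as a black bar and the number of genes in parentheses. The grey line is the median of all genes tested and the dotted lines are 1.5-fold either way. Of the transcription factors 5 of 8 lie past 1.5-fold to the left, as do 18 of 19 erythroid markers, and 11 of 17 signalling genes lie past it to the right.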

How the data were processed

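RNA-seq of splenic Treg cells gave 1 control and 1 cKO library. The methods give alignment to mm10 with TopHat. The submitters' processing notes also name STAR, StringTie and DESeq2, and the counting tool, annotation and filters are not given in the sources used here. The deposited unit is a signal, reads on each gene that the authors divided by a size factor of the library, and whole reads were recovered by division. Genes with a mean level under 1 were not tested, a pseudocount of 1 was added, and the threshold of 1.5-fold is that of the methods. The methods also set a limit on a second quantity, which they do not name. Counts by fold change alone leave that limit out. Unequal mixtures of cells, zeros set by the counting and the choice of size factor can each move these values. Levels per kb used the GENCODE vM21 transcript with the longest coding part, and mm10 and GRCm38 are the same assembly. Symbols of 20490 genes matched 1 annotation entry. The exact binomial test used TMM-scaled library totals. Steps were tested on simulated Poisson reads. These held no variation between animals and no excess of zeros, so the simulation does not cover either. Tools were Python 3.11.15, scipy 1.17.1, R 4.3.3 and edgeR 4.0.16.

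The members and the gene lists were chosen with earlier results of these data known. All 9 members were named, as was any gene of the 4 role lists, and up to 4 genes from each marker list. The marker lists of T, Treg, erythroid, endothelial, B, macrophage, granulocyte and progenitor cells were written from general knowledge. Of 7 Treg genes 2 were past 1.5-fold upward and 1 downward, and of 12 granulocyte genes 2 upward and 3 downward. Trac, Trbc1 and Trbc2 were not matched. The alternatives were other pseudocounts, filters, scalings and thresholds.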

Additional observations from a re-analysis of the deposited data

How the results depend on the processing

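No paired analysis was possible because there is 1 library of either genotype. Of 138 recomputed values, 123 stayed within their counting interval or within 1.5 times the count. Among the 123 are fold changes of single members under other filters. Those settings change only which genes are tested, so these values could not move. Scaled to equal T cell core genes, the median over all genes went from -0.04 to 0.24 and the share of changed genes that were higher from 41.6% to 58.4%. Under it Itga2b was at 0.32, Itgb3 at 0.20, Gp1ba at 0.71, Vwf at 0.69, the median of the other platelet genes at 0.64, and 6 members and 4543 genes were past 1.5-fold upward. With library totals the median of the other platelet genes was 0.27. At a 2-fold threshold 2 members and 1722 genes were higher. The lower genes, 4028 on the deposited scale, numbered 2035 with a minimum mean of 10, 1904 with genes above 0 in both libraries and 2683 by the exact binomial test. The edgeR exact test with an assumed coefficient of 0.4 called 0 members, 229 genes higher and 569 lower. The fewer calls at a minimum mean of 10 and above 0 come with fewer genes tested, 13676 and 13853 in place of 16659. Otherwise the cause was not tested. Depth limits the genes with under 30 control reads, which were Ppbp and Gp9 of the members and Treml1, Gng11, Alox12, Myl9, Gp1bb and Thpo of the other platelet genes given.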

Other observations

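The genes beside the members with higher levels were read in the same tables, a choice made after the members' values were seen. Within 100 kb of Pf4 and Ppbp lie the chemokine genes Cxcl5, Cxcl3 and Cxcl15. Cxcl5 had 3 control reads and 0 cKO reads, Cxcl3 had 0 and 11, and Cxcl15 was at 0 in both. Beside Gp9, Rab43 had 2667 and 2593 reads and a log2 fold change of 0.19, Isy1 changed by -0.24 and Cnbp by -0.10, each under 1.5-fold, while Efcc1 had 61 and 4 reads. Beside Gp5, Atp13a3 had 6326 and 4486 reads and a change of -0.26, and Lrrc15 and Cpn2 had 19 and 12 control reads and 0 cKO reads.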
